A study of Mus musculus with 4 samples.

Results

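Matricellular proteins and matrix glycoproteins are secreted proteins that fill and organise the space around cells, and the expression of 10 of their genes was followed here in a mouse mammary tumour cell line with and without added Jagged1. The genes were Fn1, Tnc, Sparc, Postn, Thbs1, Thbs2, Spp1, Fbln1, Fbn1 and Lox, chosen by symbol, and all 10 were among the 33677 gene symbols of the count table. The line, PyMT-A, is a mammary tumour cell line of the FVB/NJ mouse strain, and its name refers to the polyoma middle T oncogene. Jagged1 cells had been infected with the PMSCV-Jagged1 virus (2 libraries) and vector cells with the PMSCV-puro virus (2 libraries). Jagged1 is a membrane-bound ligand of Notch receptors, and the labels do not say whether either line was a clone or a pool of infected cells. Both lines grew in the same medium with serum. Poly(A) RNA was sequenced, and the values are raw read counts per gene.

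Structural glycoproteins such as fibronectin (Fn1) and fibrillin (Fbn1) assemble into fibres to which cells attach through integrins. Matricellular proteins, such as tenascin C (Tnc), SPARC, periostin (Postn), the thrombospondins (Thbs1, Thbs2) and osteopontin (Spp1), have little part in holding the matrix together and instead modulate adhesion, growth factors and migration. In carcinomas much of this matrix comes from fibroblasts of the stroma, while tumour cells contribute some of it themselves, osteopontin and tenascin C among them.

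The libraries held 20835208 (Jagged1 1), 13549258 (Jagged1 2), 15609720 (vector 1) and 12136227 (vector 2) counts. Levels are given in CPM, a gene's counts per 1000000 counts of its library, scaled with TMM factors, a normalisation that sets the typical gene equal between libraries. Detection was set at 3 counts, which equals 0.145 and 0.216 CPM in the Jagged1 libraries and 0.198 and 0.244 CPM in the vector libraries. These floors and counting intervals cover counting error only. Jag1 checked the labels. It stood at 274 and 324 CPM in Jagged1 cells, against 10.5 and 9.11 CPM in vector cells, and passed the test at a log2 difference of 4.93 ± 0.20 (SE; edgeR adjusted p = 0.0111). The difference was as large without vector 1 (5.06) or vector 2 (4.82), though it then did not pass (adjusted p = 0.24 and 0.153, edgeR). Summed epithelial markers (Krt8, Krt18, Epcam, Cdh1, Krt14, Krt5) lay at 4444 and 3481 CPM in Jagged1 cells, against 4027 and 3416 CPM in vector cells, with Krt5 at 0 to 2 counts throughout. Krt14 was uneven, at 740 and 356 CPM in Jagged1 cells, against 453 and 225 CPM in vector cells. Cdh1 was more even, at 561 and 593 CPM in Jagged1 cells, against 562 and 556 CPM in vector cells. Jagged1 2 stood apart. In it 144 of 13299 tested genes were at least 2-fold above each of the other 3 libraries, against 47 for Jagged1 1, 24 for vector 1 and 35 for vector 2.

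The 10 genes fell into 2 sets by level. Spp1, Thbs1, Fn1 and Tnc were abundant and took between 98.8% and 99.9% of the members' counts in every library. Sparc, Fbn1, Lox, Postn, Thbs2 and Fbln1 were under 10 CPM in both vector libraries, and each of these 6 was highest in Jagged1 2. No member passed the adjusted threshold of 0.05 in edgeR's quasi-likelihood test between Jagged1 and vector cells, where 0.00752% of all genes did (1 of 13299, which was Jag1).

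Promoter sequence is shown for 4 members whose values differ in kind: Tnc, higher in both Jagged1 libraries; Spp1, the most abundant; and Sparc and Fbn1, highest in Jagged1 2. The 250 bases before the start site are given 5′ to 3′ along the gene from the RefSeq table of build GRCm38.p6. Capitals mark matches on either strand to TGGGAA, the core of the site bound by the Notch effector Rbpj, or to TATAAA, the TATA box; a match on the other strand reads TTCCCA or TTTATA.

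Tnc (chr4:64047016-64047265, minus strand): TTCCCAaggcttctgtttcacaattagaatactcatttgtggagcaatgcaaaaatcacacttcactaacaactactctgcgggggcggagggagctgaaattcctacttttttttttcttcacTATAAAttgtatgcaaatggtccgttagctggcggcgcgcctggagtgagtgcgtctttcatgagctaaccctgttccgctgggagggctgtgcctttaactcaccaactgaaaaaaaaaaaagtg
Spp1 (chr5:104434861-104435110, plus strand): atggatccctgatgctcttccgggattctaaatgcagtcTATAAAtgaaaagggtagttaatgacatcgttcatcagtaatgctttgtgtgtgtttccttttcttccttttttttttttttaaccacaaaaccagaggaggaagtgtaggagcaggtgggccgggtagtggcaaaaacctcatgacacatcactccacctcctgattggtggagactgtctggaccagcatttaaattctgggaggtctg
Sparc (chr11:55420081-55420330, minus strand): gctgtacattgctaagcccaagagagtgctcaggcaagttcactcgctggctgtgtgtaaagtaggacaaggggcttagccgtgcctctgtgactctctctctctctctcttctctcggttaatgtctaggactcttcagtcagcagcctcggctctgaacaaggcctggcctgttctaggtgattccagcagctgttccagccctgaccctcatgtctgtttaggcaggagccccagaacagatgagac
Fbn1 (chr2:125506439-125506688, minus strand): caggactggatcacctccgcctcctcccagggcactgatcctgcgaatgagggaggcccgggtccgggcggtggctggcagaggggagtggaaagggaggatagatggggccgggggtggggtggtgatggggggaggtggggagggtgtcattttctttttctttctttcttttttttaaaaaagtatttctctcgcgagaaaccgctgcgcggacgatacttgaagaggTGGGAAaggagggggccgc

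RefSeq windows of 300 bases, reaching 50 bases past the start, matched 7 of the 10 members, not Fn1, Thbs1 or Lox, with 11 windows, since some genes have more than 1 start. TGGGAA was present in windows of Tnc, Fbln1 and Fbn1, or 4 of 11 windows, and in 25.6% of all 32851 windows. TATAAA was present for Tnc, Postn, Thbs2 and Spp1, or 5 of 11 windows, against 13.6% of all windows. The match of Postn lay at -26 from its start, and those shown for Tnc and Spp1 at -126 and -211. That of Thbs2 lay at -126 on the other strand. The RefSeq starts behind the matches of Postn, Thbs2 and Spp1 lie shortly before the GENCODE M21 gene starts, and the second window of Spp1, inside the gene, held no TATAAA. The RefSeq starts of Sparc (55420080) and Fbn1 (125506438) lie inside the GENCODE M21 genes, which begin at 55423183 and 125507993 on the minus strand. The bases shown for Sparc and Fbn1 thus lie within these genes. The pair of Tnc windows overlap and share the same TATAAA and 1 TGGGAA, so these matches were counted in both. The AP-1 motif TGANTCA was present in 0 of the 11, against 7.81% of all. None of these matches overlapped another, and the shared TGGGAA of Tnc spanned the start site of the sequence shown. These counts describe letters in short windows, and a match is not a measured binding site.

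Levels between genes were compared per kilobase of merged exons. Spp1 was highest, at 935 ± 91.8 CPM per kb in Jagged1 cells and 1084 ± 15.9 in vector cells (SD, n = 2 each, here and below). Thbs1 followed with 229 ± 71.8 in Jagged1 and 293 ± 2.91 CPM per kb in vector cells. Fn1 came next, at 89.7 ± 14.0 in Jagged1 and 96.9 ± 40.2 CPM per kb in vector cells, then Tnc at 21.7 ± 0.355 in Jagged1 and 14.0 ± 4.11 CPM per kb in vector cells. Spp1, Thbs1, Fn1, Tnc and Sparc kept this order in each library. Sparc had 3.34 ± 3.40 CPM per kb in Jagged1 cells and 0.963 ± 0.672 in vector cells. Lox stood at 0.895 ± 1.12 CPM per kb in Jagged1 and 0.254 ± 0.242 in vector cells. Fbn1 had 0.524 ± 0.527 CPM per kb in Jagged1 and 0.195 ± 0.00114 in vector cells, and Postn 0.506 ± 0.409 in Jagged1 and 0.154 ± 0.218 in vector cells. Lox, Fbn1 and Postn changed places between libraries and did not differ from each other beyond their spread. Thbs2 and Fbln1 were lowest, at 0.123 ± 0.175 and 0.0798 ± 0.0972 CPM per kb in Jagged1 cells. In vector cells Thbs2 was at 0 counts and Fbln1 at 0.0169 ± 0.00247 CPM per kb.

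**Figure D1:**
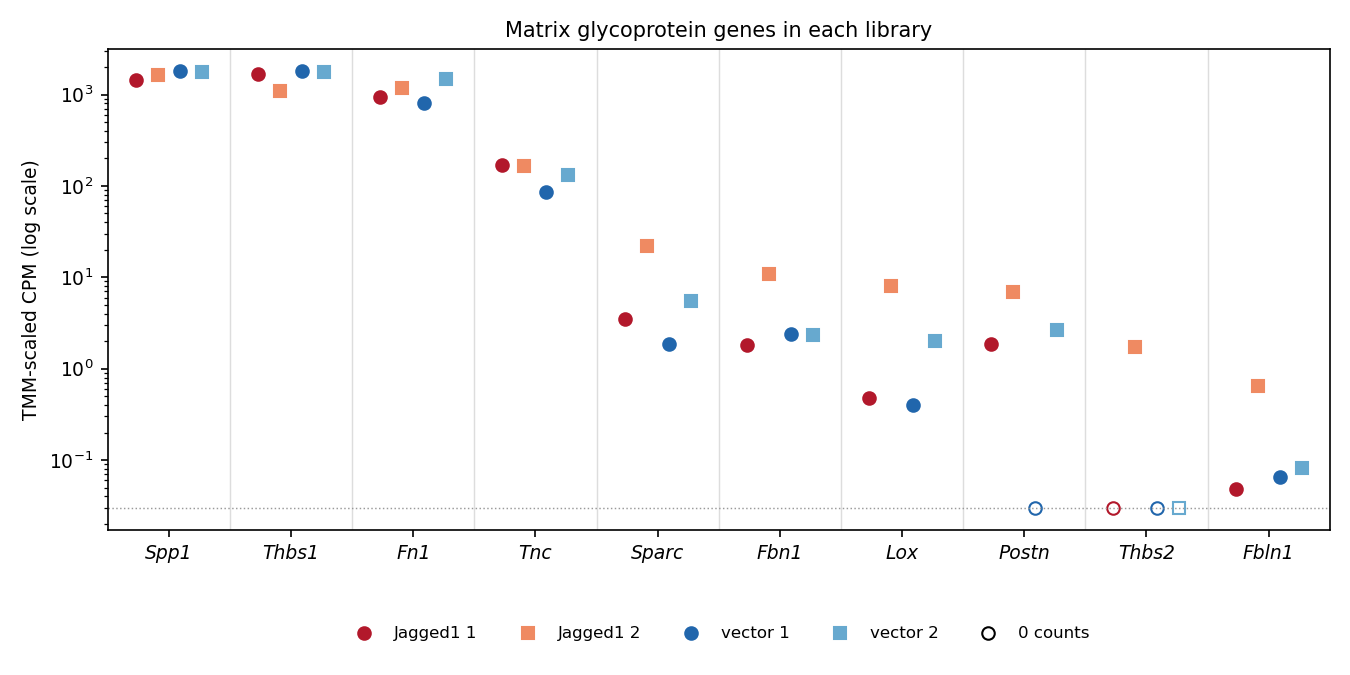
TMM-scaled CPM of each gene (log axis) in the 2 Jagged1 libraries and the 2 vector libraries, 1 point per library, with open symbols for 0 counts. The 4 genes on the left lie between 86.2 and 1804 CPM, and for the 6 on the right the highest point is Jagged1 2.

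Between Jagged1 and vector cells 8 of the 10 genes could be tested; Thbs2 and Fbln1 had too few counts for the filter. Beside a call rate of 0.00752% over all genes, 0 calls among 8 members does not set them apart. DESeq2, which called 0.302% of all genes, and limma-voom also called 0 of the members. At an unadjusted p under 0.05 stood 1 member, Tnc, where 3.96% of all tested genes did. By sign, 5 of the 8 were higher and 3 lower, with a median log2 fold change of 1.02 beside -0.0025 over all tested genes. That median rested on Jagged1 2: without it 2 were higher and 6 lower, with a median of -0.17. It was 0.55 without vector 1, 1.41 without Jagged1 1 and 1.18 without vector 2. Restricted to genes with a mean of at least 5 CPM, 5 members remained and their median was -0.094. Where 1 library of a line was left out, the remaining one was assumed to vary like the other line.

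Tenascin C, the product of Tnc (ENSMUSG00000028364, chromosome 4, 63959785 to 64047015, minus strand, GRCm38), is an adhesion-modulating protein of wounds and tumours. It had 3530 and 2313 counts in the Jagged1 libraries, against 1306 and 1617 in the vector libraries. These were 171 and 167 CPM in Jagged1 cells, against 86.2 and 131 CPM in vector cells. Both Jagged1 values lay above both vector values, a pattern that 1 of the 10 members and 13.9% of all tested genes showed. The Jagged1 libraries differed by little, and the larger gap was between the vector libraries. On the log2 scale the difference was 0.63 ± 0.23 (SE; adjusted p = 1.00, edgeR), or 1.55-fold between the means. It lay at 0.98 within the libraries numbered 1 and 0.34 within those numbered 2, and at 0.38 without vector 1 and 0.96 without vector 2.

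Spp1 (ENSMUSG00000029304, chromosome 5, 104435118 to 104441050, plus strand) encodes osteopontin, a secreted phosphoprotein that binds integrins through its RGD motif and also the receptor CD44. It had 29662 and 22860 counts in Jagged1 cells, against 27326 and 21740 in vector cells, or 1434 and 1648 CPM in Jagged1 cells, against 1804 and 1767 CPM in vector cells. Each Jagged1 value was under each vector value, as for 2 of the 10 members and 15.2% of all tested genes. The log2 fold change was -0.21 ± 0.16 (SE; adjusted p = 1.00, edgeR), and it stayed between -0.32 and -0.12 with any 1 library left out.

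Thbs1 (ENSMUSG00000040152, chromosome 2, 118111876 to 118127133, plus strand), the gene of thrombospondin 1, an inhibitor of angiogenesis and activator of latent TGF-beta, was the other gene of this kind. It stood at 1698 and 1081 CPM in Jagged1 cells, against 1790 and 1765 CPM in vector cells (35134 and 15006 counts in Jagged1, against 27110 and 21712 in vector cells). The vector libraries were nearly equal, Jagged1 1 was close to them, and Jagged1 2 was lowest. Its log2 fold change was -0.35 ± 0.25 (SE; adjusted p = 1.00, edgeR). Most of it came from Jagged1 2: the value was -0.064 without that library and -0.72 without Jagged1 1.

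Fn1 (ENSMUSG00000026193, chromosome 1, 71585520 to 71653200, minus strand) encodes fibronectin, the fibre-forming ligand of the integrin made of the Itga5 and Itgb1 chains. It had 19294 and 16147 counts in Jagged1 cells, against 12125 and 18009 in vector cells, or 932 and 1164 CPM in Jagged1 cells, against 801 and 1464 CPM in vector cells. The groups overlapped, with both the lowest and the highest value in vector cells. The library numbered 2 was the higher one of each line, by 1.25-fold in Jagged1 and 1.83-fold in vector cells. At -0.11 ± 0.32 (SE; adjusted p = 1.00, edgeR), the log2 fold change had no stable sign. Jagged1 1 minus vector 1 was 0.22 and Jagged1 2 minus vector 2 was -0.33. Leaving out vector 2 gave 0.38, leaving out Jagged1 1 gave 0.044, and leaving out vector 1 gave -0.46. The gene counts do not separate the splice forms of fibronectin or of tenascin C.

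Counts of Fn1 relative to Thbs1, a ratio that needs no scaling, were 0.549 and 1.08 in Jagged1 cells, against 0.447 and 0.829 in vector cells. The ratio was thus higher in the library numbered 2 of each line.

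Sparc (ENSMUSG00000018593, chromosome 11, 55394500 to 55423183, minus strand) encodes a collagen-binding matricellular protein. Its counts were 73 and 302 in Jagged1 cells, against 28 and 67 in vector cells. These gave 3.53 CPM (exact 95% Poisson interval 2.77 to 4.44) and 21.8 CPM (19.4 to 24.4) in Jagged1 cells, against 1.85 (1.23 to 2.67) and 5.45 CPM (4.22 to 6.92) in vector cells. Jagged1 2 was 4.0-fold above the next library, vector 2, and 6.17-fold above Jagged1 1, which lay between the vector libraries. With all libraries the log2 fold change was 1.80 ± 0.95 (SE; adjusted p = 1.00, edgeR), and it was -0.031 without Jagged1 2. Without Jagged1 1 the adjusted p was 0.0969, and the value was 1.22 without vector 1 and 2.75 without vector 2.

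Fbn1 (ENSMUSG00000027204, chromosome 2, 125300594 to 125507993, minus strand), the gene of fibrillin 1, the main protein of microfibrils, had 38 and 151 counts in Jagged1 cells, against 36 and 29 in vector cells. The values were 1.84 CPM (1.30 to 2.52) and 10.9 CPM (9.22 to 12.8) in Jagged1 cells, against 2.38 (1.66 to 3.29) and 2.36 CPM (1.58 to 3.39) in vector cells. The other 3 libraries had overlapping intervals and Jagged1 2 was 4.58-fold above the next. Fitted over all libraries, the log2 fold change was 1.41 ± 0.83 (SE; adjusted p = 1.00, edgeR), and -0.36 without Jagged1 2. Without Jagged1 1, with Jagged1 2 as the only library of its line, it was 2.20 and passed (adjusted p = 0.00613, edgeR), as did 1.38% of all genes in that fit.

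Fbln1 (ENSMUSG00000006369, chromosome 15, 85205949 to 85286535, plus strand), for fibulin 1, a glycoprotein of elastic fibres and basement membranes, had 1 and 9 counts in Jagged1 cells, against 1 and 1 in vector cells. It was not tested, and all libraries but Jagged1 2 were under the floor of detection. The interval in Jagged1 2 (0.297 to 1.23 CPM) overlapped that in vector 2 (0.00206 to 0.453 CPM).

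Lox (ENSMUSG00000024529, chromosome 18, 52516067 to 52529867, minus strand) encodes lysyl oxidase, the enzyme that cross-links collagen and elastin. It had 10 and 112 counts in Jagged1 cells, against 6 and 25 in vector cells. The levels were 0.483 CPM (0.232 to 0.889) and 8.07 CPM (6.65 to 9.71) in Jagged1 cells, against 0.396 (0.145 to 0.862) and 2.03 CPM (1.32 to 3.0) in vector cells. Each library numbered 2 exceeded its number 1, by 16.7-fold in Jagged1 and 5.13-fold in vector cells. At 1.82 ± 1.36 with all libraries (SE; adjusted p = 1.00, edgeR), the log2 fold change was -1.28 without Jagged1 2, 1.07 without vector 1, 2.77 without Jagged1 1 and 3.38 without vector 2.

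Postn (ENSMUSG00000027750, chromosome 3, 54361109 to 54391037, plus strand), for periostin, a matricellular protein typical of stromal fibroblasts, had 39 and 96 counts in Jagged1 cells, against 0 and 33 in vector cells. That was 1.88 CPM (1.34 to 2.58) and 6.92 CPM (5.60 to 8.45) in Jagged1 cells, against 0 and 2.68 CPM (1.85 to 3.77) in vector cells. The floor of 3 counts stands at 0.198 CPM in vector 1, where the count was 0. Jagged1 2 was highest, 2.58-fold above vector 2, and Jagged1 1 lay below vector 2, so the groups overlapped. Its log2 fold change was 1.74 ± 1.44 (SE; adjusted p = 1.00, edgeR), and it was 0.54 without Jagged1 2 and 0.72 without vector 1. Under limma-voom it was 3.66, where Lox was 0.91 and Fbn1 0.74; none of these passed.

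Thbs2 (ENSMUSG00000023885, chromosome 17, 14665500 to 14694235, minus strand), for thrombospondin 2, a relative of thrombospondin 1 made mainly by fibroblasts, had 0 and 24 counts in Jagged1 cells, against 0 and 0 in vector cells. Its level in Jagged1 2 was 1.73 CPM (1.11 to 2.57), and where the count was 0 the floor of 3 counts stands at 0.145 CPM in Jagged1 1, 0.198 CPM in vector 1 and 0.244 CPM in vector 2. Without the low-count filter it was called higher (adjusted p = 0.0144, edgeR) on the reads of that 1 library, as were 0.686% of all genes in either direction. Without Jagged1 1 its log2 fold change was 7.58, and it entered that fit only through the same reads of Jagged1 2.

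**Figure D2:**
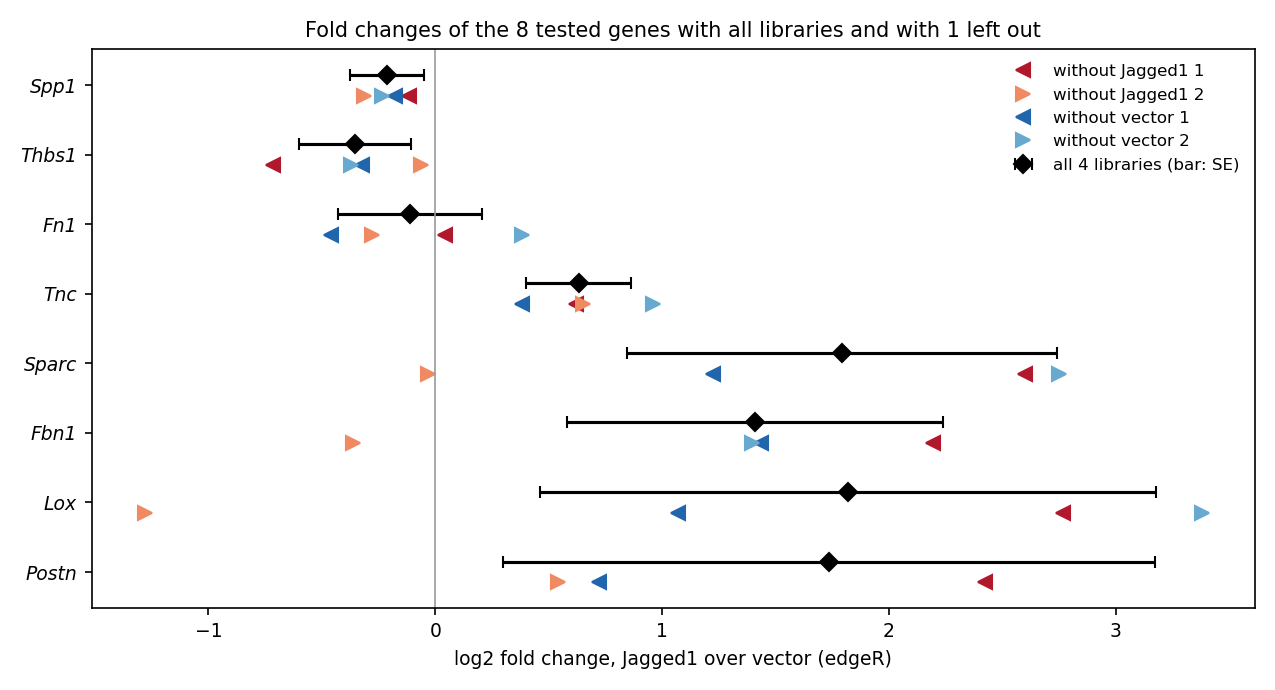
Log2 fold change of Jagged1 over vector (x axis) for the 8 tested genes: diamonds with SE bars use all 4 libraries, triangles leave out 1. Spp1, Thbs1 and Tnc keep their sign, while Sparc, Fbn1 and Lox move below 0 without Jagged1 2; the value of Postn without vector 2 is not drawn, since the vector side is then at 0 counts.

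The pattern of a single high library was seen in the data and then counted. All 6 low genes were at least 2-fold above each other library in Jagged1 2. Of the 8 tested members it was 4, Sparc, Fbn1, Lox and Postn, beside 1.08% of all tested genes. That share covers genes of every level and was not matched to the low level of these 4. Together the 6 genes came to 7.78 and 50.02 CPM in Jagged1 cells, against 4.69 and 12.6 CPM in vector cells. They made up 0.183% and 1.22% of the members' counts in Jagged1 cells, against 0.105% and 0.245% in vector cells. The 4 abundant genes summed to 4235 and 4059 CPM in Jagged1 cells, against 4481 and 5128 CPM in vector cells, with the lowest sum in Jagged1 2.

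Most fibroblast markers were also highest in Jagged1 2. Of the 8 listed, 5 (Col1a1, Col1a2, Col3a1, Pdgfrb and Dcn) were at least 2-fold above the other libraries in Jagged1 2. The 8 together came to 10.5 and 69.0 CPM in Jagged1 cells, against 4.42 and 6.99 CPM in vector cells. Col1a2, a chain of type I collagen, had 0 and 280 counts in Jagged1 cells and 0 in both vector libraries, and Col3a1, the type III collagen chain, had 0 and 83 counts in Jagged1 cells, against 0 and 0 in vector cells. Pdgfrb, a growth factor receptor of fibroblasts and pericytes, had 9 and 103 counts in Jagged1 cells, against 0 and 0 in vector cells. Pdgfra, its relative, was instead highest in Jagged1 1, with 166 and 93 counts in Jagged1 cells, against 51 and 61 in vector cells. Lum was at 0 in all 4 libraries and Thy1 at 0 or 1 count. Their part in the values of the 6 low genes was not tested, and more cells of a kind cannot be told apart from more RNA per cell in bulk libraries.

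Markers of other cell types were also uneven between libraries. Of 6 macrophage markers Lyz2 had 0 and 89 counts in Jagged1 cells, against 0 and 71 in vector cells, and Adgre1 had 0 and 16 in Jagged1 cells, against 0 and 6 in vector cells. Csf1r instead had 32 and 23 counts in Jagged1 cells, against 10 and 16 in vector cells. Cd68 had 3 and 22 counts in Jagged1 cells, against 15 and 32 in vector cells. The macrophage sum of 174 and 396 CPM in Jagged1 cells, against 210 and 238 CPM in vector cells, consisted mostly of Cd14, and Ptprc, which marks leukocytes, had at most 1 count. Of the 5 endothelial markers the sum was 0.58 and 6.34 CPM in Jagged1 cells, against 0.66 and 2.85 CPM in vector cells. Cdh5 was the largest contributor in each library, with 10 and 84 counts in Jagged1 cells, against 6 and 32 in vector cells, and Emcn was at 0 throughout. Pecam1 had 0 and 0 counts in Jagged1 cells, against 4 and 1 in vector cells. Kdr stayed at 0 to 3 counts and Tek at 0 or 1. Their part in the members' values was not tested.

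**Figure D3:**
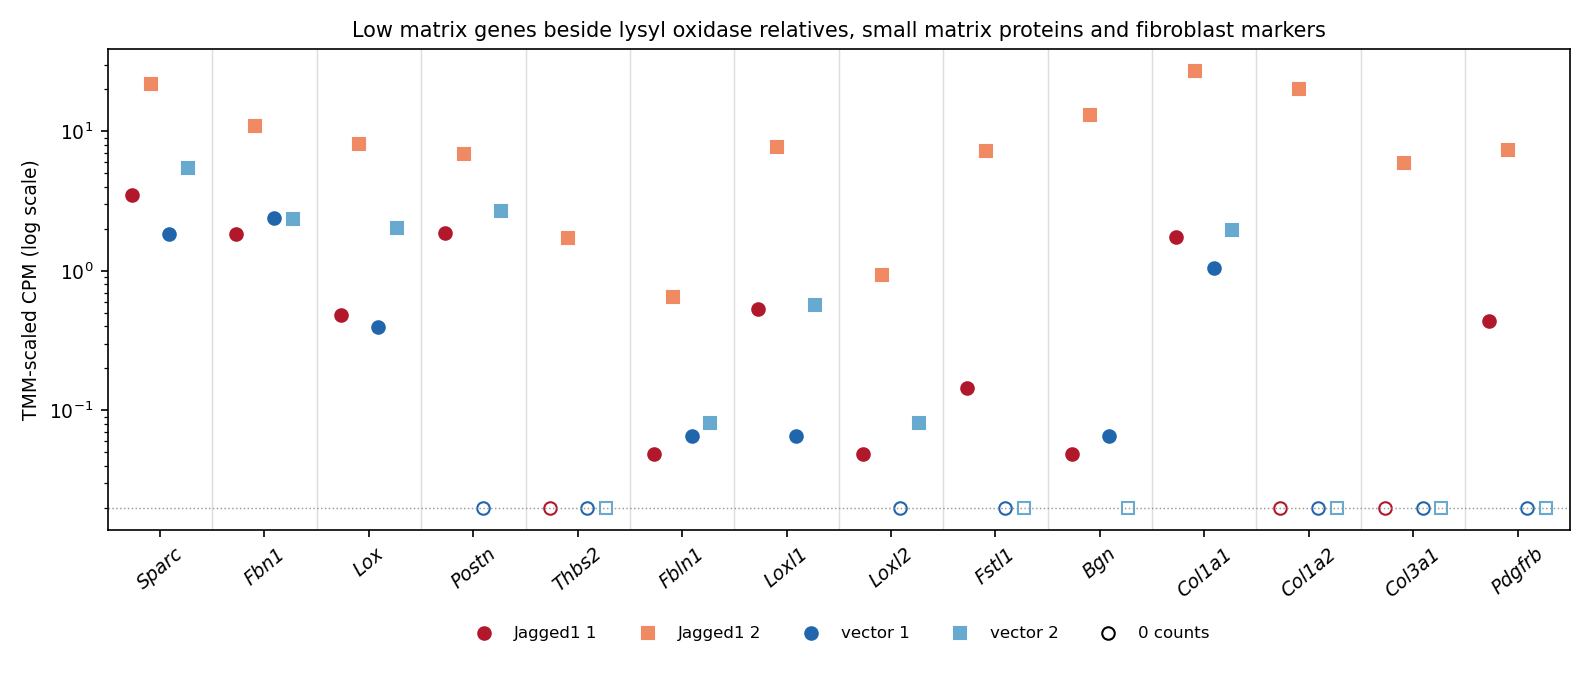
TMM-scaled CPM (log axis) in each library for the 6 low genes, 2 lysyl oxidase relatives, Fstl1 and Bgn, and 4 of the 8 fibroblast markers, drawn because they were high in Jagged1 2, with open symbols for 0 counts. Jagged1 2 is the highest point of each gene drawn, up to 27.1 CPM for Col1a1; Pdgfra, Thy1, Lum, Loxl3 and Loxl4, which do not show this, are not drawn.

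Sparc had the widest range over the libraries among members with a mean of at least 5 CPM, 3.47 on the log2 scale. Among 10382 other genes, the 3 whose centred log2 CPM profiles lay nearest to it over the 4 libraries were Sirpa (Euclidean distance 0.459), Plppr3 (0.749) and Lrp1 (0.832). Sirpa, which encodes a receptor of CD47, had 100 and 298 counts in Jagged1 cells, against 43 and 78 in vector cells. Lrp1, an endocytic receptor that binds thrombospondins among many ligands, had 1282 and 3469 counts in Jagged1 cells, against 731 and 907 in vector cells. Plppr3 had 5.41 and 36.8 CPM in Jagged1 cells, against 3.96 and 5.53 CPM in vector cells. Nearness over 4 points is a description only.

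Related genes were read from 5 lists with 80 genes, of which 77 were in the table and 44 could be tested. None of the 44 passed in edgeR, where 7 stood at an unadjusted p under 0.05, beside 3.96% of all tested genes. By sign 31 were higher and 13 lower, with a median log2 fold change of 0.17, while 6588 of the 13299 tested genes were higher. DESeq2 called 2 of the list genes, Itgb3 and Ccn5, beside 0.302% of all genes, and limma-voom called 0. In edgeR without the low-count filter 4 of 71 passed (Ccn5, Dcn, Itgb3 and Loxl4), beside 0.686% of all genes. Without overlap between the lines, 15 of the 44 were higher in Jagged1 cells and 2 lower, beside 13.9% and 15.2% of all tested genes. Without Jagged1 1, when Jagged1 2 alone stands for its line, Plod2 had a log2 fold change of 0.98 and Lrp1 of 2.04. Loxl1 (4.65), Dcn (7.52), Fstl1 (9.63) and Bgn (8.18) were untested with all libraries and entered this fit only through Jagged1 2. All of these were named after that fit was seen. Without Jagged1 2 the 1 call among 45 was Itgb3, beside 0.352% of all genes.

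Genes of the lysyl oxidase family differed in pattern. Loxl1 had 11 and 107 counts and Loxl2 1 and 13 counts in Jagged1 cells, against 1 and 7 for Loxl1 and 0 and 1 for Loxl2 in vector cells; both showed the pattern of Lox, and neither had enough counts to be tested. Loxl3 stood at 4.30 and 4.25 CPM in Jagged1 cells, against 2.44 and 2.85 CPM in vector cells (log2 fold change 0.69 ± 0.34). Loxl4, the family member with the highest CPM per kb in each library, was lower in both Jagged1 libraries, at 68.3 and 40.9 CPM against 142 and 75.9 CPM in vector cells (log2 fold change -0.996 ± 0.38). Its adjusted p was 1.00 in edgeR, and 0.00155 in edgeR without the low-count filter, a fit that called 0.686% of all genes. Of the 9 tested genes of this list, which holds other cross-link enzymes as well, 7 were higher and 2 lower; 0 passed in edgeR and 2 stood at an unadjusted p under 0.05. Pcolce, an enhancer of procollagen processing, had the highest value (1.06 ± 0.53), with 2.71 and 6.77 CPM in Jagged1 cells against 2.38 and 2.11 CPM in vector cells.

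Of the 20 other matricellular genes present, 6 were tested, 3 higher and 3 lower; 0 passed in edgeR and 2 stood at an unadjusted p under 0.05. The thrombospondin gene Thbs3 had a log2 fold change of -0.056 ± 0.45, and Thbs4 had 4 and 9 counts in Jagged1 cells, against 7 and 2 in vector cells. Ccn5, listed under its older symbol Wisp2 and encoding a CCN family matricellular protein, had the highest value of the list. It stood at 13.0 and 20.3 CPM in Jagged1 cells, against 1.19 and 5.69 CPM in vector cells, without overlap. The log2 fold change was 2.29 ± 0.71 (adjusted p = 1.00, edgeR). Its adjusted p was 0.0402 in DESeq2 and 8.57e-07 in edgeR without the low-count filter. These fits called 0.302% and 0.686% of all genes. Ccn2, the connective tissue growth factor gene, was lowest in the list (-0.26 ± 0.34), at 193 and 123 CPM in Jagged1 cells against 138 and 241 CPM in vector cells. Fstl1, a secreted SPARC relative too low in 3 libraries to be tested, had 3 and 100 counts in Jagged1 cells and 0 in both vector libraries.

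Among 8 tested elastic fibre and microfibril genes 6 were higher and 2 lower, with 0 past the threshold and 0 at an unadjusted p under 0.05. The fibulin gene Fbln5 had the highest value (0.89 ± 0.60), at 11.9 and 4.40 CPM in Jagged1 cells against 2.84 and 6.02 CPM in vector cells. Fbln2 had the lowest (-0.47 ± 1.15) and varied widely within each line, with 5.32 and 80.6 CPM in Jagged1 cells against 29.9 and 88.3 CPM in vector cells. In both lines the library numbered 2 was the higher one.

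Of 13 tested receptors of the members 9 were higher and 4 lower, with a median log2 fold change of 0.12; 0 passed in edgeR and 1 stood at an unadjusted p under 0.05. Chains of the RGD-binding integrins had these log2 fold changes: Itgav 0.12 ± 0.15, Itga5 0.085 ± 0.17, Itgb1 0.16 ± 0.17, Itgb5 0.30 ± 0.26, Itgb6 -0.024 ± 0.27, Itga8 0.34 ± 0.14 and Itgb8 0.63 ± 0.38. Of these Itga8 and Itgb8 were higher in both Jagged1 libraries than in both vector libraries. Over the whole list 3 of the 13 tested receptors were, beside 13.9% of all tested genes. Itga8 stood at 186 and 178 CPM in Jagged1 cells, against 143 and 145 CPM in vector cells, and Itgb8 at 46.2 and 47.3 CPM in Jagged1 cells, against 18.6 and 42.0 CPM in vector cells. Cd44, the other osteopontin receptor, was at -0.27 ± 0.16, with 462 and 393 CPM in Jagged1 cells against 511 and 519 CPM in vector cells. Itgb3, the partner of Itgav in the integrin first described as the vitronectin receptor, had 316 and 58 counts in Jagged1 cells, against 21 and 19 in vector cells. That was 15.3 and 4.18 CPM in Jagged1, against 1.39 and 1.54 CPM in vector cells, or 2.73 ± 0.68 on the log2 scale (adjusted p = 0.925, edgeR). The adjusted p was 0.0134 in DESeq2 and 5.94e-07 in edgeR without the low-count filter, fits that called 0.302% and 0.686% of all genes. Without Jagged1 2 the value was 3.38 and passed in edgeR (adjusted p = 0.00982).

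Of 8 tested further glycoproteins and proteoglycans 6 were higher and 2 lower; 0 passed in edgeR and 2 stood at an unadjusted p under 0.05. Edil3, an integrin-binding secreted protein, had the highest value (1.45 ± 0.40; adjusted p = 0.979, edgeR), with 6.48 and 4.40 CPM in Jagged1 cells against 1.72 and 2.28 CPM in vector cells. Ecm1 had the lowest (-0.16 ± 0.24). Bgn, a small collagen-binding proteoglycan, was untested at 1 and 183 counts in Jagged1 cells, against 1 and 0 in vector cells. Over the 5 lists 2 of 44 tested genes (Pcolce and Lrp1) were at least 2-fold above the other libraries in Jagged1 2. Of all tested genes 1.08% were. Of the 33 untested list genes, 7 with at least 10 counts in Jagged1 2 showed this pattern too. These were Tnxb, Smoc1, Fstl1, Loxl1, Loxl2, Dcn and Bgn. An untested gene with that many counts in Jagged1 2 is low in the other libraries by the filter. The pattern of these genes was thus largely set by how they were picked, and it adds nothing to that of the tested genes.

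**Figure D4:**
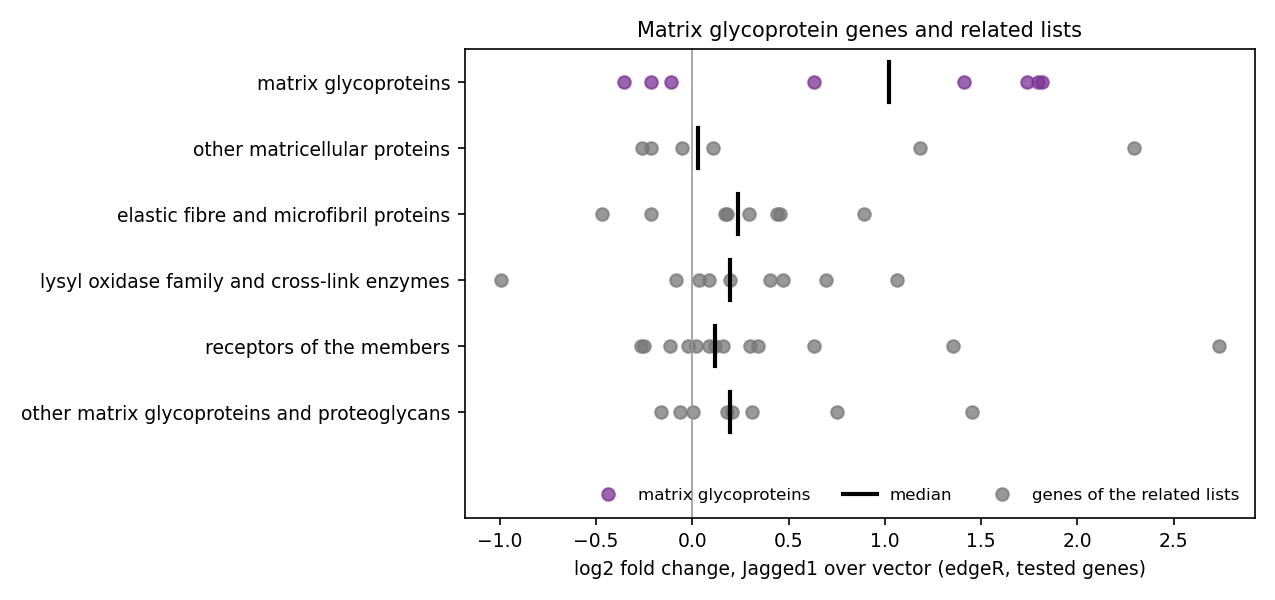
Log2 fold change of Jagged1 over vector (edgeR) for the 8 tested matrix glycoprotein genes and the tested genes of 5 related lists, 1 point per gene, with a bar at each median. Medians of the related lists lie between 0.027 and 0.24, and the highest single gene is Itgb3 at 2.73.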

How the data were processed

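The deposited table holds unnormalized counts of reads by gene symbol for each library separately. STAR 2.6.0c, featureCounts 1.6.2 and the build mm10 (GRCm38) are named in, and credited per, the submitters' processing notes. The annotation release is not given in the sources used here, nor is the strand setting. Without strand, reads of overlapping genes cannot be told apart. In GENCODE M21 exons of Fn1, Tnc, Thbs1, Fbn1 and Lox overlap a gene on the other strand, and those of Spp1 a gene on the same strand, by 30 to 2442 bases. Symbols and lengths were taken from GENCODE M21, and older CCN symbols were matched through RefSeq synonyms.

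Libraries were grouped by their virus label, 2 against 2. Genes were filtered with filterByExpr (minimum count 10), which left 13299, scaled with TMM and tested over the whole table with edgeR 4.0.16 in R 4.3.3 (quasi-likelihood F test, robust and legacy options), with Benjamini-Hochberg adjustment over all genes and a threshold of 0.05. SE was computed as the size of the log2 fold change over the root of F. Log2 CPM used a prior count of 2. An exact permutation test of 2 against 2 cannot go below p = 0.333 (two-sided) and was not run. Alternatives used DESeq2 1.42.0, limma-voom (limma 3.58.1), other scalings and filters, a replicate block, and each library left out. The fit was tested on simulated data with the same spread for every gene, so that check does not cover the spread between these libraries.

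Nothing says that the libraries came from separate cultures, so p-values reflect only the variation between these 4 samples, possibly technical. The chi-square statistic of the counts, over its degrees of freedom, was 50.6 between the Jagged1 libraries and 32.3 between the vector libraries, so neither pair is 1 library deposited again. The members and lists were chosen with earlier results of these data known. Genes named beside the members were Jag1, the highest and lowest tested gene of each list, the Lox and thrombospondin relatives, integrin chains and Cd44, markers, and the 3 genes nearest to Sparc. Fstl1, Bgn, Tnxb, Smoc1 and the genes called only in alternatives were named after their values were seen.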

Additional observations from a re-analysis of the deposited data

How the results depend on the processing

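The count of genes called over the whole table was 1 and depended on the method: it was 47 with DESeq2, 169 without the low-count filter, 17 with the replicate number as a replicate block, and between 0 and 193 with 1 library left out. For the members the count was 0, against 1 (Thbs2) without the low-count filter. With 1 library left out it moved only without Jagged1 1, through Fbn1 and Thbs2, where genes can enter the fit through Jagged1 2 alone. It stayed at 0 with RLE or upper-quartile scaling, DESeq2, limma-voom, a minimum mean of 5 CPM and the replicate block. For the related lists it was 0, against 2 with DESeq2, 4 without the low-count filter and between 0 and 6 with 1 library left out. With 1 library left out the log2 fold change lay between -0.46 and 0.38 for Fn1, -0.031 and 2.75 for Sparc, -0.36 and 2.20 for Fbn1, and -1.28 and 3.38 for Lox; the cause was not tested. Of 85 values of single members under the alternatives, 79 kept their sign and their side of the threshold, 5 changed sign and 1 newly passed. The titles number the libraries alike in both lines but do not say what a number marks. The names of the count columns instead number the libraries in a single run across both lines. Deviations of the same-numbered libraries from their line means correlated at 0.43 across tested genes, which are not independent replicates. The replicate block changed the call of none of the 8 tested members, and Tnc then stood at 0.66 (adjusted p = 0.329, edgeR). Few counts limit what can be read from the low genes. Thbs2 and Fbln1 were under the floor in 3 of the 4 libraries, among them Jagged1 1, the library with the most counts.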
